A study of Mus musculus with 12 samples.

Results

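RNA polymerase II was mapped just upstream of promoters in microglia, at 2095 peaks of its subunit Rpb2 whose centre lies more than 100 and at most 1000 bp before the nearest transcription start site (TSS) of a protein-coding gene. They belong to 1975 genes and were taken from 26706 Rpb2 peaks in all, of which 10125 lie within 1000 bp of a TSS. The distances are those of the deposited annotation, so the choice used position and gene type and no read count. Peaks of protein-coding genes from -100 to 200 bp are called core peaks here (5955 peaks), and those from there to 1000 bp downstream peaks (1542 peaks).

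The series holds 12 chromatin immunoprecipitation libraries: 4 for Rpb2, 4 for acetylation of lysine 27 on histone H3 (H3K27ac), and 4 inputs that were not used here. Microglia came from mice of strain C57BL/6J, 2 mo old, that were littermates from Cx3cr1+/eGFP parents. WT mice were Cx3cr1+/+. KO mice were Cx3cr1eGFP/eGFP: in every cell, from the germline on, both copies of the gene for the chemokine receptor CX3CR1 carry an eGFP insertion, so the KO cells also make eGFP and the WT cells do not. The labels give no treatment. Each genotype has 2 pools per antibody, labelled female and male, and each pool mixes the CD11b+ CD45lo microglia of 3 mice, so sex label and pool cannot be told apart. The Rpb2 libraries hold 11662185 (WT pool labelled female), 13653287 (WT male), 44332626 (KO female) and 16528108 (KO male) reads, of which 11.2 to 15.1% fell in peaks. One label is at odds with chromosome Y, whose 3 Rpb2 peaks held 136 reads for the WT pool labelled female and 0 for KO female, against 214 and 266 for the male pools. Among the H3K27ac libraries the WT one labelled female was weak, with 15.9% of its reads in peaks against 61.1 to 65.3% in the other 3.

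Of the 36 microglia signature genes listed for the check of cell identity, 34 had an Rpb2 peak within 1000 bp of a TSS, and their summed Rpb2 level was 49444 to 53849.7 RPKM in the 4 libraries. RPKM is used throughout for reads per kb of peak per 1000000 reads in peaks within 1000 bp of a TSS, so that peaks of different width can be compared. No such peak was found for the listed markers of neurons, astrocytes, monocytes and neutrophils, border macrophages or lymphocytes. Among 5 oligodendrocyte markers, Mbp and Cnp, which encode myelin proteins, had peaks, with a summed level of 1237 RPKM in the WT pool labelled female, 943 in WT male, 715 in KO female and 572 in KO male. Among 5 endothelial markers Pecam1, an adhesion molecule, had one, with a level of 217, 109, 134 and 128. None of the markers of other cell types had an upstream peak. The part of these cells in the results below was not tested.

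Mammalian promoters commonly fire in both directions. Besides the polymerase that moves into the gene, another is often loaded at a nearby upstream site on the opposite strand and makes a short, unstable upstream antisense RNA that is cut, released by early polyadenylation signals and degraded by the nuclear exosome, whereas the sense polymerase is protected by splice donors. A polymerase upstream of an annotated start can also belong to an unannotated start of the same gene, or to a neighbour gene transcribed away from it. Chromatin immunoprecipitation does not read the strand, so none of these can be told apart from Rpb2 counts alone.

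The sequences of 6 peaks illustrate where the most heavily occupied ones lie. They are among the 8 with the highest Rpb2 level that lie outside annotated untranslated regions. All are given for GRCm38/mm10 on the strand of the gene they precede, 5′ to 3′. In Eapp and Tex14 the capitals mark the longest stretch that both peaks share, 94 bases on opposite strands with 9 exact copies on 2 chromosomes of the genome. In the others capitals mark each match to the GC box GGGCGG, to CCAAT, to the TATA box TATAAA, to the E-box CACGTG or to the ETS core CGGAAG on either strand.
Ing1 (chr8:11557848-11558058, plus strand): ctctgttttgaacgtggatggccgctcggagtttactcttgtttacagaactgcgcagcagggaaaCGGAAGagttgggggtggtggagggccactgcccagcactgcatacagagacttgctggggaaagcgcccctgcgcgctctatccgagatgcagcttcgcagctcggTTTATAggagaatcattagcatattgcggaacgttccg
Eapp (chr12:54696741-54697038, minus strand): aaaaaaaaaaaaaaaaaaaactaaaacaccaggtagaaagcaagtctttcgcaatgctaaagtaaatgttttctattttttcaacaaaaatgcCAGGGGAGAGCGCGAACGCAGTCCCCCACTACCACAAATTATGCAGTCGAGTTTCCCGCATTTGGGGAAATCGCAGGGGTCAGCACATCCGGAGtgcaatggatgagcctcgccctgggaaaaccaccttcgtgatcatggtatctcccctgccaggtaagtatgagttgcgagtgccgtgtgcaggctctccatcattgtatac
Tex14 (chr11:87426786-87427052, plus strand): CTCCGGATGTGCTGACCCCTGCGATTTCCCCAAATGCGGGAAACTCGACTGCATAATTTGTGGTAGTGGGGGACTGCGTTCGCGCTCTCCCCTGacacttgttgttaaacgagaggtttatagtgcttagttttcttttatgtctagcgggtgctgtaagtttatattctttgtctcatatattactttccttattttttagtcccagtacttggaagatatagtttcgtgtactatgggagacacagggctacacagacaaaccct
Slc16a13 (chr11:70221161-70221383, minus strand): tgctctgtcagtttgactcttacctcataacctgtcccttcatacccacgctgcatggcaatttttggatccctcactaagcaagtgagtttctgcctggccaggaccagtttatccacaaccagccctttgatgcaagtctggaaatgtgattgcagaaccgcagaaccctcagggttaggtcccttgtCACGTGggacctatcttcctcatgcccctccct
Klf6 (chr13:5861052-5861274, plus strand): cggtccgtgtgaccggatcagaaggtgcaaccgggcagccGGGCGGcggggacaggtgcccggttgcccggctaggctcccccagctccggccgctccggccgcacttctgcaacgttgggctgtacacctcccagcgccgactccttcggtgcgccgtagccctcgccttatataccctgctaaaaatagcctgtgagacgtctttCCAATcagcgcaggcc
Grn (chr11:102430098-102430309, plus strand): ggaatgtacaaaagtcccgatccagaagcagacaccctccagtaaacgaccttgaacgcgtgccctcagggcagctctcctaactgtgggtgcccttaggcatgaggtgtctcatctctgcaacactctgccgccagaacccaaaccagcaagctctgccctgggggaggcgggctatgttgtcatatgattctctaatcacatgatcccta
The Ing1 peak, upstream of a gene for a chromatin reader of the ING family, holds an ETS core and a TATA box, the latter read on the strand opposite to Ing1. In Slc16a13, which encodes a monocarboxylate transporter, only an E-box was found, in Klf6 a GC box and a CCAAT box, and in Grn none of the 5. A peak over a repeated stretch counts only the reads that map there uniquely.

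Upstream peaks were concentrated near the start site. Between 100 and 200 bp upstream there were 655 (31.3%), between 200 and 300 bp 467 (22.3%), between 300 and 400 bp 270 (12.9%), between 400 and 600 bp 334 (15.9%), between 600 and 800 bp 203 (9.69%) and between 800 and 1000 bp 166 (7.92%). A single upstream peak was found in 1858 genes, 2 in 114 genes and 3 in Phf21a, Tgfbr1 and Zmynd8. Peaks were narrow, with a median width of 246 bp (range 197 to 610 bp), against 245 bp for core peaks.

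**Figure D1:**
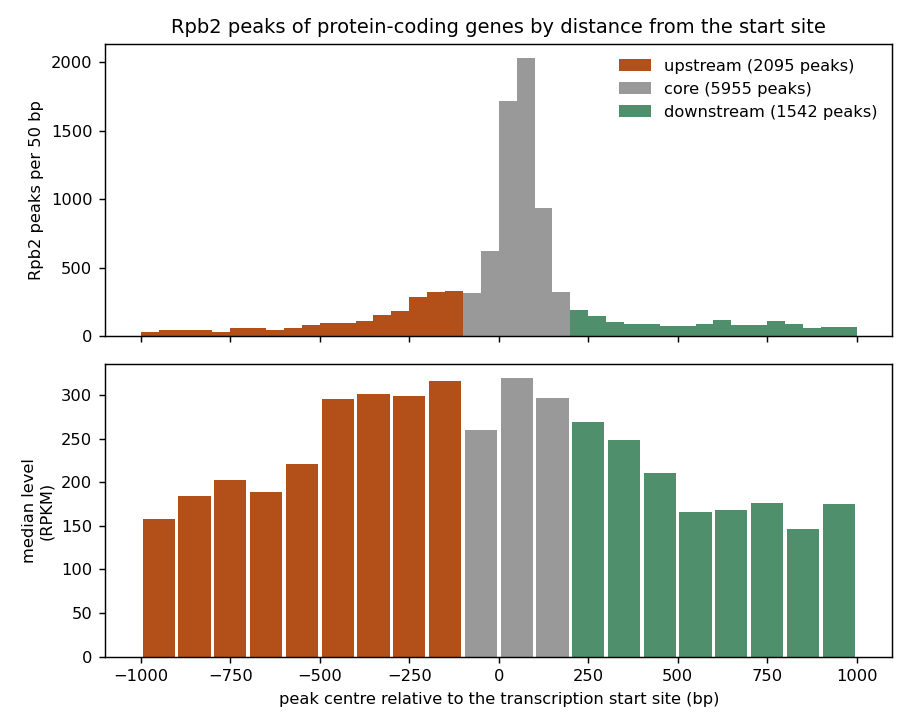
Number of Rpb2 peaks of protein-coding genes per 50 bp (top) and their median level in RPKM (bottom, per 100 bp) against the distance of the peak centre from the start site in bp, coloured by upstream, core and downstream position. Upstream peaks thin out away from the start, and their median level falls from 316 in the 100 bp nearest to the core to 158 in the farthest 100 bp.

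Most upstream peaks were not a second peak beside one at the start. For 1536 of the 2095 (73.3%) the gene had no core peak, and for 1251 (59.7%) the upstream peaks were the gene's only Rpb2 peaks between -1000 and 1000 bp. A core peak of the same gene existed for 559 (26.7%): 437 had a core and no downstream peak, and 122 had both. A further 285 had a downstream peak and no core peak. The 2 kinds lay at different distances: the median was -229.5 bp without and -490 bp with a core peak. Without a core peak were 90.8% of the peaks between 100 and 200 bp upstream, 88.2% of those between 200 and 300 bp, 72.2% of those between 300 and 400 bp and 47.0% of those between 800 and 1000 bp. A peak caller merges or drops neighbours, and whether that sets the low number of pairs close to the start was not tested.

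Inside most upstream peaks lay no annotated transcription start. The definition favours this, because it puts the centre more than 100 bp from the nearest TSS and the median width was 246 bp. In 1548 (73.9%) no start of the GENCODE annotation lay inside the peak. Another start of the same gene lay inside 223 (10.6%), the peak reached its own TSS in 158 (7.54%), and the start of another gene lay inside 166 (7.92%). In 163 of these 166 it lies on the strand opposite to the gene, the arrangement of a divergent pair. By kind, 112 of the 166 are long noncoding or other RNAs, 49 are protein-coding, 4 are small noncoding RNAs and 1 peak holds both a noncoding and a protein-coding start. Peaks with the start of another gene had a median level of 340 and those with no annotated start 273. An opposite-strand start of another gene within 1000 bp upstream of the TSS was annotated for 292 upstream peaks (13.9%). The share was 21.7% for core and 17.7% for downstream peaks. A peak centred on the start of such a neighbour can be assigned to the neighbour. These shares therefore cannot show whether divergent neighbours are rarer or more frequent at upstream peaks. At least in part, 754 upstream peaks (36.0%) overlap the annotated body of their own gene, and 531 (25.3%) overlap an annotated untranslated region. An overlap at the edge was enough, so peaks that reach their own TSS can be among them.

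Over small noncoding RNA genes lay 9 upstream peaks, a group formed after the levels were seen. Their median level was 1299.8 RPKM against 275.7 for all upstream peaks. They are those of Eapp over the snRNA gene Gm22513, of Tex14 over the snRNA gene Gm22068, of Znfx1 over Gm27494, of Gtf3c6 over the U3 snoRNA gene Rnu3a, of Alyref2 over the snRNA gene Gm24871, of Tti2 over Snord13, of Ctdnep1 over Gm44349, of Rdm1 over Gm23849 and of Ddx39b over Gm22589. The Eapp peak had 3506, 3026, 3818 and 2942, the Tex14 peak 3152, 3029, 3505 and 3355, and the Gtf3c6 peak 1379, 1726, 1778 and 1765 in the order WT (labelled female), WT male, KO female, KO male, which holds for all values of 4 libraries below. The pools of the genotypes overlapped at Eapp, while at Tex14 and Gtf3c6 both KO pools lay above both WT pools. The latter was so in 23.6% of all upstream peaks.

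Upstream peaks had a median level of 275.7 RPKM, with quartiles of 155 and 480 and a range from 22.4 to 3440.2. Core peaks had a median of 304 and downstream peaks of 199.9. The median over upstream peaks was 272, 263, 271 and 273 in the 4 libraries. By distance, the median was 316, 299 and 301 in the 3 successive steps of 100 bp nearest to the core and 170.0 beyond 800 bp. Just inside the limits of the definition, 53 peaks between 100 and 110 bp upstream had a median of 271 and 29 between 950 and 1000 bp one of 155, and just outside, 57 peaks between 90 and 100 bp had 294 and 30 between 1000 and 1050 bp had 182.

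The highest level was reached upstream of Ing1, with 3327, 2611, 4136 and 3686. After the peaks of Eapp and Tex14 came those of Gtf2a1 (a subunit of the general factor TFIIA; 2611, 3269, 2755 and 2294), Ppp1r10 (a phosphatase regulatory subunit that acts in transcription termination; 2316, 2676, 2697 and 3145), Slc16a13 (3002, 2607, 2329 and 2661) and Klf6 (an immediate-early zinc finger factor; 2307, 2853, 2671 and 2601). The last 3 of the 10 highest were Pdgfb (a platelet-derived growth factor chain; 2092, 2157, 2249.6 and 2402), Grn (the lysosomal protein progranulin; 2292, 1299, 2456 and 2528) and Tbc1d22a (2414, 2153, 1971 and 1999.9). All 10 were in the peak lists of both genotypes. Both KO pools lay above both WT pools in 23.6% of all upstream peaks and below in 17.2% (21.7% and 20.4% of all near-TSS peaks). Among the 10 highest, the KO pools lay above the WT pools in Ing1, Tex14, Ppp1r10, Pdgfb and Grn and below them in Tbc1d22a. The widest of these log2 differences were 0.48 in Grn (SE 0.23, adjusted p = 0.474 by edgeR's quasi-likelihood test), where 1 WT pool was close to the KO pools, and 0.40 in Ing1 (SE 0.17, adjusted p = 0.407). Gtf2a1, Ppp1r10 and Pdgfb hold another start of their own gene inside the peak.

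H3K27ac, a mark of active promoters and enhancers, lay over nearly all upstream peaks. Of the 2095, 2038 (97.3%) overlapped an H3K27ac peak and 57 did not, against 99.4% of core and 97.3% of downstream peaks. The share was 98.8% in the nearest 100 bp and 85.1% in the farthest 100 bp. The 1920 H3K27ac peaks concerned had a median width of 2846 bp against 669 bp over all 55798 H3K27ac peaks. Their median level was 14.9 against 4.55 over all (reads per kb per 1000000 reads in H3K27ac peaks). Other promoter peaks were also wide and strong, with medians of 2149 bp and 13.5 over core Rpb2 peaks. Within 1000 bp of a TSS the medians were 1783 bp and 10.8.

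The GC content of upstream peaks was below that of core peaks and fell with distance from the start. In the 200 bases around the peak centre, the median GC content was 61% for upstream, 66.5% for core and 62.5% for downstream peaks, and the CpG frequency relative to expectation was 0.721, 0.867 and 0.706. Within 300 bp of the TSS upstream peaks had 62.5% and 0.765, and beyond 500 bp 55.5% and 0.531. The GC box GGGCGG, bound by Sp factors, was found on either strand in 40.8% of upstream, 53.8% of core and 36.3% of downstream windows (47.3% of all windows within 1000 bp of a TSS). The ETS core CGGAAG was found in 20.95%, 31.3% and 17.8% (26.4% of all), CCAAT in 19.1%, 18.3% and 15.6% (18.2% of all), and TATAAA in 3.48%, 3.21% and 3.24% (3.43% of all). The purine-rich GAGGAA, a core of sites for the myeloid factor PU.1, was in 22.4%, 19.4% and 26.8% (21.3% of all), the AP-1 site TGACTCA in 2.20%, 1.495% and 2.60% (1.91% of all) and the E-box CACGTG in 6.63%, 6.05% and 4.22% (5.93% of all).

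Signals that act on RNA were searched by strand. The splice donor GTAAGT on the strand of the gene was in 1.58% of upstream windows against 3.58% of core and 3.50% of downstream windows, and on the opposite strand in 1.19%, 0.924% and 1.49%. The polyadenylation signal AATAAA was in 3.87% of upstream, 1.19% of core and 1.82% of downstream windows on the strand of the gene, and in 2.63%, 1.33% and 3.18% on the opposite strand. In upstream windows beyond 500 bp the 2 strands were close, with AATAAA in 4.51% on the strand of the gene and 4.71% on the opposite one. GC content differs between these classes, and its part in the motif counts was not tested.

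How much polymerase sits upstream relative to the start of the same gene was asked in the 559 pairs of an upstream peak and the nearest core peak. Upstream occupancy per base was lower than at the core in 204 pairs (36.5%) and higher in 83 (14.8%) at an adjusted p under 0.05, by edgeR's quasi-likelihood test with the library as block, fitted together with 611 pairs of a downstream and a core peak. Over the pairs of both flanks the shares were 49.4% lower and 10.2% higher. The median log2 ratio of upstream to core was -0.46, and -0.55, -0.61, -0.35 and -0.41 in the 4 libraries. The medians of both KO pools were less negative than those of the WT pools, which was not so for the 220 pairs whose upstream peak is in both lists (0.097, 0.025, 0.126 and 0.083). The 270 pairs of the KO list had -1.07, -1.23, -0.46 and -0.55, and the 69 of the WT list -0.52, -0.52, -1.21 and -1.33. For downstream pairs the median was -1.36, with 374 (61.2%) lower and 36 (5.89%) higher.

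Relative to the core peak, the median occupancy of upstream pairs was above that of downstream pairs in all 4 libraries. Upstream minus downstream, the difference of the medians was 0.735, 0.903, 0.975 and 0.845 on the log2 scale, a mean of 0.864 ± 0.101 (SD, n = 4 libraries). The two-sided exact permutation p over the 4 paired values was 0.125, the smallest that 4 libraries can give. The gap between the peaks of a pair was not the same on both sides, and with only pairs 400 to 800 bp apart the mean difference was 1.01. For flanking peaks listed in both genotypes the means over libraries were 0.08 upstream and -0.84 downstream, against -0.48 and -1.34 over all pairs. A peak caller needs a minimum height, and a listing in both genotypes does not remove that limit. In 77 trios of an upstream, a core and a downstream peak, in 76 genes, the upstream peak was the higher of the 2 flanks in all 4 libraries in 35 and the lower in all 4 in 15.

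**Figure D2:**
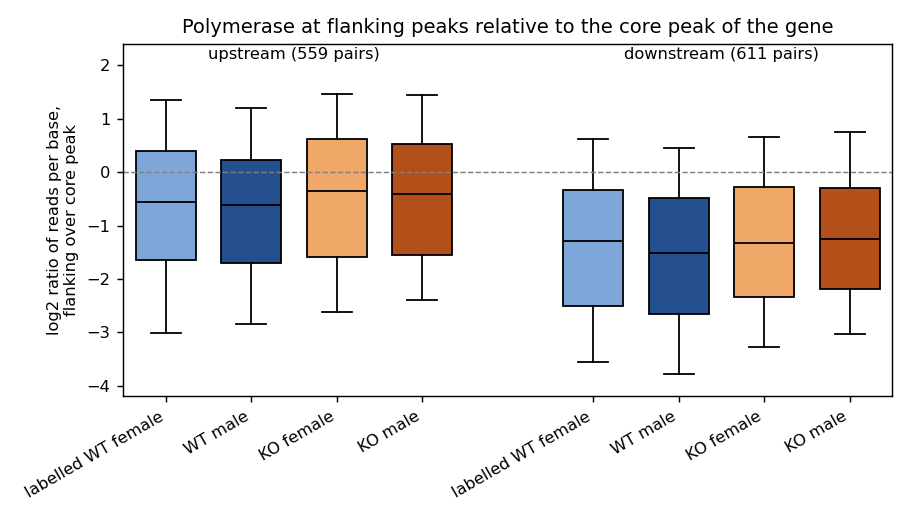
Log2 ratio of reads per base, flanking peak over core peak of the same gene, in each of the 4 libraries, for 559 upstream and 611 downstream pairs. Boxes span the quartiles with the median as a line, and whiskers reach the 10th and 90th percentiles. All 4 upstream medians lie between -0.61 and -0.35, above all 4 downstream medians, which lie between -1.51 and -1.25.

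The level at the upstream peak followed that at the core only loosely (Spearman's rho 0.254 over 559 pairs, which share libraries). The highest ratio was at Sp1, a ubiquitous activator that binds GC boxes. Its upstream peak at -794 bp (chr15:102405375-102405670) had 915, 1034, 1012 and 822 and its core peak 59.5, 45.4, 42.5 and 56.1, an 18.8-fold difference (log2 4.23, SE 0.30, adjusted p = 1.98e-08). All 4 libraries were far above the core there. Next were Haus1, a subunit of the augmin complex of the mitotic spindle (log2 4.03, SE 0.38), Tnfaip8 (3.08, SE 0.42), Tbc1d22a (2.95, SE 0.21) and Tcf4, an E-protein transcription factor (2.92, SE 0.36). In these 4 the core peak belongs to another promoter of the gene, 6326, 51785, 63296 and 1546 bp away, and the Haus1 peak holds the start of Atp5a1, a subunit of ATP synthase. Of the 559 pairs, 77 were more than 1200 bp apart in this way, and the 482 others had a median log2 ratio of -0.43. Ing1 and Eapp had upstream peaks 5.67 and 5.42 times as dense as their core peaks, with 598, 482, 676 and 657 at the core of Ing1 and 573, 597, 643 and 626 at that of Eapp.

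The pairs with the lowest ratios had strong core peaks, which follows in part from the choice, because the core level divides the ratio. Upstream of Sgk1, a glucocorticoid-induced kinase, the level was 68.3, 45.9, 63.5 and 82.1, and at its core 3547, 4562, 3623 and 3932. The log2 ratio was -5.90 (SE 0.27, adjusted p = 1.81e-10 by edgeR's quasi-likelihood test), with the core peak 3155 bp away at another start. Hnrnpk, an RNA-binding protein, had -5.21 (SE 0.55), with a core peak 1412 bp away at another start and 3, 0, 69 and 50 reads upstream. Gna15, a G protein subunit, had -4.69 (SE 0.56), with 0, 9, 38 and 56 reads upstream. Mertk, the receptor kinase with which microglia take up apoptotic cells, had 129, 129, 149.9 and 77.3 upstream and 2688, 3045, 2979 and 2471 at the core (-4.55, SE 0.26, 525 bp apart). Arrdc3, an arrestin-like protein, had 94.3, 188, 170.4 and 148 against 3543, 2953, 3279 and 3264 (-4.44, SE 0.27). In each of the 5 the libraries of both genotypes were below the core.

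**Figure D3:**
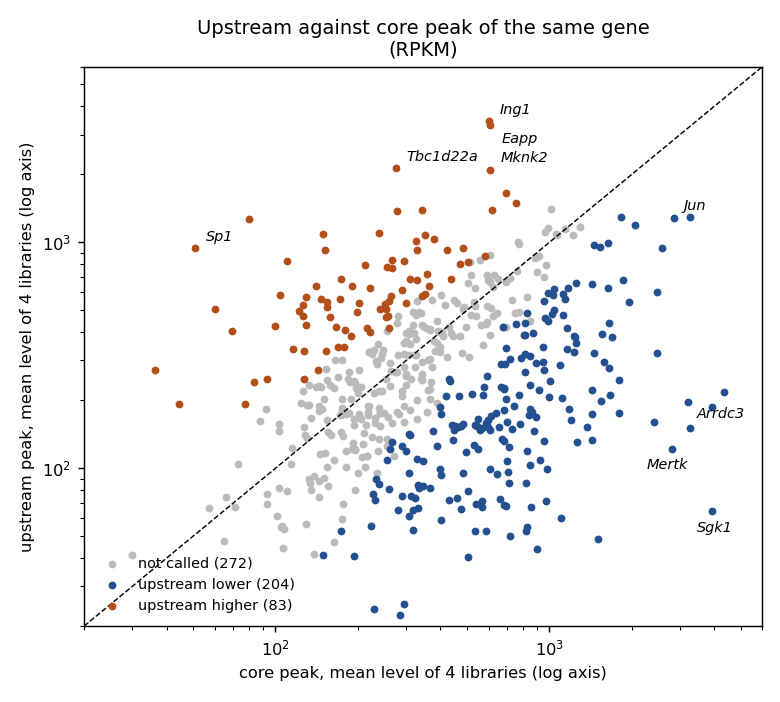
Mean level of the upstream peak against that of the core peak of the same gene, 1 point per pair, both in RPKM on log axes, coloured by the test of the density difference. The dashed line marks equal levels. Of the 559 pairs, 204 lie significantly below it and 83 above it, with Sp1, Ing1, Eapp and Tbc1d22a above and Sgk1, Mertk, Arrdc3 and Jun below.

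Whether loss of CX3CR1 changed upstream polymerase was tested in 2 KO against 2 WT pools, over all 10125 Rpb2 peaks within 1000 bp of a TSS. No upstream peak passed an adjusted p of 0.05 by edgeR's quasi-likelihood test (0 of 2095; 0% of all 10125), and the lowest adjusted p was 0.116. At an unadjusted p under 0.05 were 205 upstream peaks (9.79%), 117 higher and 88 lower in KO, against 10.6% of all peaks. DESeq2 called 1 upstream peak (0.0477%) and 20 of all 10125 (0.198%). The median log2 difference was 0.066 over upstream peaks and 0.020 over all. When all 26706 peaks were in the fit the scaling moved the median of all near-TSS peaks to -0.11 and that of upstream peaks to -0.060, so the sign turned. Over peaks of every list, downstream peaks had a median of 0.062, close to that of upstream peaks. Both KO pools lay above both WT pools in 495 upstream peaks (23.6%, background 21.7%) and below in 361 (17.2%, background 20.4%).

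The difference followed the peak lists. The authors called peaks for each genotype and merged the lists: 991 upstream peaks (47.3%) were in both, 910 (43.4%) in the KO list alone and 194 (9.26%) in the WT list alone, against 62.0%, 30.6% and 7.37% of core peaks and 42.7%, 45.1% and 12.3% of downstream peaks. The list was made from the same reads, so levels by list are a description. The median log2 difference was -0.037 for upstream peaks of both lists, 0.35 for those of the KO list and -0.60 for those of the WT list, against -0.057, 0.33 and -0.71 for all near-TSS peaks of these lists. Read numbers were unequal between the pools, with 44332626 reads in KO female, and the part of depth in the lists was not tested. Beyond 500 bp from the TSS the median was 0.19 and within 500 bp 0.025. Reads in upstream peaks made up 19.6, 19.0, 19.8 and 19.8% of all reads in near-TSS peaks, a difference of 0.505 percentage points between the means of KO (19.8%) and WT (19.3%). The 2 groups did not overlap, and the two-sided exact permutation p was 0.333, the smallest that 2 against 2 allows. Counting only upstream peaks of both lists, the shares were 17.7, 17.4, 17.9 and 17.7%, the groups overlapped and the difference was 0.202 (exact permutation p = 0.667). Without WT male the difference was 0.163 and without the WT pool labelled female 0.846. As a share of reads in all Rpb2 peaks the means were 11.1% in KO and 11.4% in WT, the opposite direction.

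**Figure D4:**
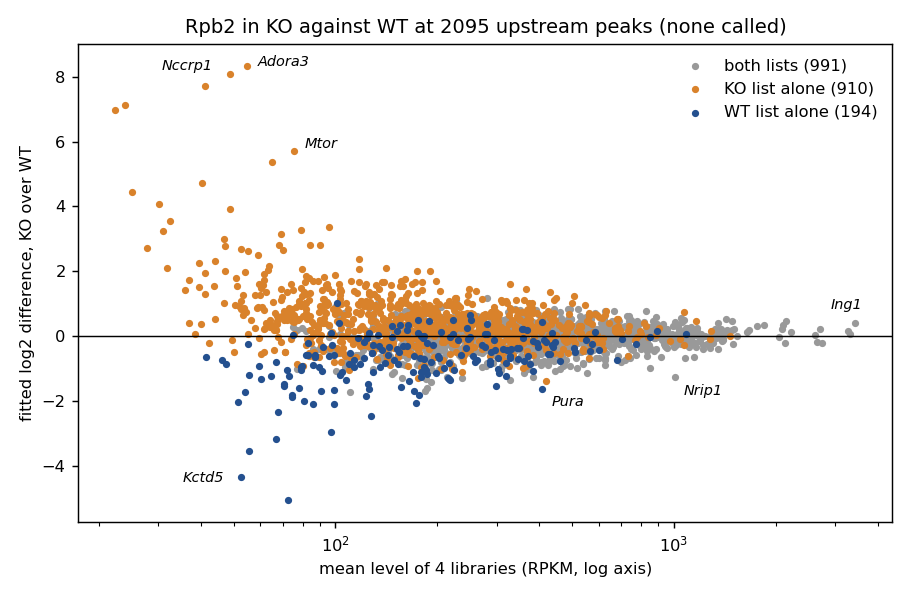
Fitted log2 difference of KO over WT against the mean level of the 4 libraries (RPKM, log axis) for the 2095 upstream peaks, coloured by the peak list. None passed the adjusted threshold. The widest differences are at low levels in peaks listed for 1 genotype, and at a high level Nrip1 stands at -1.26.

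Nrip1, a corepressor of nuclear receptors, had the lowest p. Its upstream peak at -190 bp (chr16:76373132-76373347) had 1465 and 1376 in the WT pools and 607 and 579.8 in the KO pools. The log2 difference was -1.26 (SE 0.26, unadjusted p = 8.27e-05, adjusted p = 0.116), and the pools did not overlap, which was a condition for being named by p. DESeq2 called it (adjusted p = 0.00459), as did edgeR with at least 10 reads required in every library (adjusted p = 0.0449). Its core peak, 597 bp away, had 592, 924, 965 and 599, a log2 difference of 0.05 (SE 0.29). Against this difference near 0 stood the lower upstream peak, but the test of the upstream to core ratio gave an adjusted p of 0.184. The H3K27ac peak over the upstream peak had a log2 difference of -0.01 (SE 0.32). It is 14808 bp wide, so it does not read the upstream peak alone.

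The other upstream peaks with the lowest p were each listed for 1 genotype alone, and most had few reads in the other. A peak listed for 1 genotype entered the table only through the pools where it is high, so the direction of these differences comes with the selection and their values are a description. Mtor, the growth kinase, had levels of 0, 4.63, 127 and 169, and Aup1, a lipid droplet protein, 0, 5.01, 98.5 and 157. Adora3, an adenosine receptor expressed by microglia, had 0 and 0 in WT against 101 and 118 in KO (74 and 40 reads), and Nccrp1 0 and 0 against 76.8 and 119. Usf1, which binds E-boxes, had 10.9, 18.3, 170.2 and 117. Lower in KO were Pura, a single-strand nucleic acid binding protein (455, 779.9, 176 and 221), Kctd5, a ubiquitin ligase adaptor (64.9, 133, 0 and 11.8), and Tbc1d10b, a Rab GTPase activator (227, 118, 24.7 and 17.7). Their adjusted p ran from 0.116 to 0.194, so none was called.

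The ratio of upstream to core polymerase was compared between genotypes in the same pairs, where depth cancels. Of 559 upstream pairs 9 passed an adjusted p of 0.05 by edgeR's quasi-likelihood test (8 higher and 1 lower in KO), and 4 of 611 downstream pairs (1.11% of all pairs). At an unadjusted p under 0.05 were 83 upstream pairs (14.8%), against 14.2% of all. Of the 9, 7 had an upstream peak in the KO list alone, Kctd5 in the WT list alone, and Mknk2 in both. For the 8 listed in 1 genotype the direction is that of the list through which they entered, so the calls add no support to it, and over pairs whose upstream peak is in both lists 1 was called. Leaving out either KO pool left 0 called, while leaving out the WT pool labelled female gave 24 and leaving out WT male 13.

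**Figure D5:**
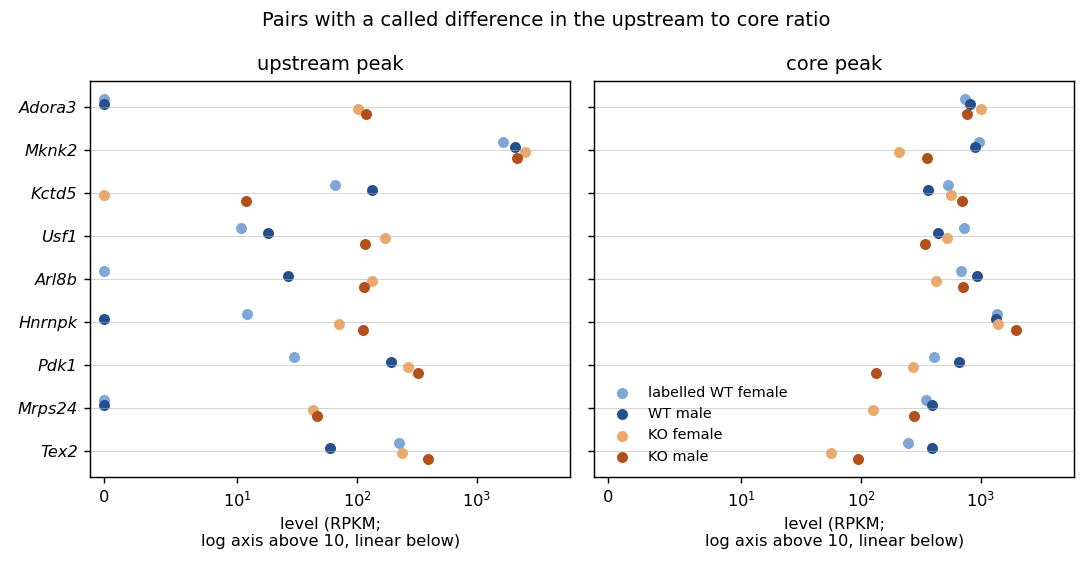
Levels in RPKM of the upstream (left) and core (right) peak of the 9 genes whose upstream to core ratio differed between genotypes, 1 point per library, on an axis that is linear below 10 and logarithmic above. In 8 of the 9 the upstream peak is low in at least 1 pool, and in Mknk2 the upstream peak is high in every pool while the core peak is lower in both KO pools.

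Mknk2, a kinase that phosphorylates the translation factor eIF4E, was the called pair with many reads at every point. Its upstream peak at -526 bp (chr10:80676710-80676929) had 1640.0, 2072, 2508 and 2170.4, with both KO pools above both WT pools. The core peak had 959, 897, 209 and 354, with both KO pools below. The log2 ratio was 2.11 higher in KO (SE 0.42, adjusted p = 0.0116). Neither peak was called alone (adjusted p = 0.587 upstream and 0.116 at the core). The pair was called also with at least 10 reads required in every library.

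In the other called pairs the upstream peak held few reads in at least 1 pool. Adora3 had 0 and 0 reads in WT against 74 and 40 in KO, with a core at 741, 804, 995 and 765 (adjusted p = 0.00912). Usf1 had 3, 6, 185 and 59 reads (log2 difference of the ratio 3.63, SE 0.78), Arl8b, a lysosomal GTPase, 0, 7, 118 and 47 (3.88, SE 0.88), Hnrnpk 3, 0, 69 and 50 (3.64, SE 0.87) and Mrps24, a mitochondrial ribosomal protein, 0, 0, 30 and 15. Pdk1, which inhibits pyruvate dehydrogenase, had 6, 46, 211 and 119 (3.17, SE 0.81) and Tex2 41, 13, 172 and 132 (3.42, SE 0.88), and in these and Mrps24 the core peak was lower in both KO pools than in either WT pool. Kctd5 had 18, 44, 0 and 6 reads with a core of 533, 364, 561 and 689 (-5.02, SE 1.03, adjusted p = 0.0122). With at least 10 reads in every library, 3 pairs were called: Mknk2, Tex2 and Naa16.

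Acetylation at upstream peaks was compared in the same design. Of the 1920 H3K27ac peaks over upstream peaks 0 were called by edgeR's quasi-likelihood test, against 13 of 55798 (0.0233%), and 52 (2.71%) had an unadjusted p under 0.05, against 4.95% of all. DESeq2 called 3 (0.156%) and 240 of all (0.430%). In the edgeR fit, H3K27ac peaks over core Rpb2 peaks had a median log2 difference of 0.089, with 3.74% at an unadjusted p under 0.05. Those within 1000 bp of a TSS had 0.048 and 3.55%, and those farther away -0.40 and 5.26%. The median log2 difference was 0.11 at upstream peaks and -0.21 over all H3K27ac peaks. With at least 10 reads in every library these medians were 0.05 and -0.00, and without the weak WT library 0.09 and 0.14, with 32 of the 1920 called (1.67%) against 1.53% of all. At Ing1, H3K27ac levels were 23.4, 22.3, 32.3 and 24.5, and at Klf6 23.9, 30.4, 28.0 and 27.2. Without WT male, which left the library of low enrichment as the only WT pool, 314 of the 1920 were called (16.4%), against 14.8% of all.

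Cx3cr1 itself had no upstream peak. Its core peak had 1994, 2095, 1977 and 1840 (log2 difference -0.10, SE 0.19), and a downstream peak at 970 bp had 467, 414, 133 and 235 (-1.27, SE 0.38, adjusted p = 0.232), lower in both KO pools.

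Upstream peaks were then read by the role of the gene. None was called between genotypes in any of the 11 lists. Over all near-TSS peaks the median was 0.020, and 10.6% had an unadjusted p under 0.05. For pools that do not overlap the shares over all near-TSS peaks were 21.7% higher and 20.4% lower. The medians and counts of the lists stand against these. Among polymerase II subunits and pausing factors, 18 of 75 genes had an upstream peak (18 peaks). In 6 of the 18 the KO pools were both below the WT pools and in 1 both above, with a median log2 difference of -0.20, and 3 had an unadjusted p under 0.05. Aff1, a scaffold of the super elongation complex, had 1126, 1519.7, 676 and 981 upstream and 1109.6, 1574, 854 and 735 at the core, so the KO pools were low in both (adjusted p = 0.333 and 0.270). Cdk12, a kinase of the polymerase tail, had 843, 1084, 886 and 921, and Nelfa, a subunit of the pausing factor NELF, 638, 577, 724 and 689.

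Factors that terminate and degrade upstream antisense RNA had 8 upstream peaks in 7 of 60 genes, with a median log2 difference of -0.04, none at an unadjusted p under 0.05. Besides Ppp1r10, Clp1 of the cleavage complex had 899.8, 1109, 1082 and 1007, and Exosc4, an exosome subunit, 1107, 631, 866 and 722. Ints6, a subunit of the Integrator complex, had 719, 655, 449 and 579.7 upstream and 1877, 2062, 3289 and 2634 at the core, a log2 ratio of -2.03 (SE 0.26, adjusted p = 5.27e-06). Regulators of mRNA stability had 16 upstream peaks in 13 of 52 genes, with a median of 0.34, 6 peaks with the KO pools above the WT pools and 1 below, and 1 at an unadjusted p under 0.05. Among them Ddx6, a helicase of mRNA decay, had 821, 949, 477 and 542 (adjusted p = 0.295), Cnot2 of the deadenylase complex 1243, 535, 614 and 539, and Tob2 589.8, 767, 778 and 593. Zfp36l2, which destabilises mRNA, had 385, 544, 553 and 725, with the KO pools above the WT pools (log2 0.45, SE 0.33, adjusted p = 0.679).

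Transcription factors of myeloid cells had 15 upstream peaks in 15 of 35 genes, a median level of 493 and a median log2 difference of 0.33. In 7 both KO pools lay above both WT pools and in 1 below, and 4 had an unadjusted p under 0.05. Tcf4 had 542, 673, 928 and 1166 (log2 0.78, SE 0.28, adjusted p = 0.325). The NF-kappa B subunits Rela (1409.7, 1055, 1208 and 927) and Nfkb2 (805, 919, 1134 and 1173) and the factor Maf (1016, 1294, 1323 and 1022) had levels among the highest of the list, of which Nfkb2 had KO pools above WT pools (log2 0.42, SE 0.24).

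Immediate-early genes had 15 upstream peaks in 13 of 37 genes, with 9 pairs, of which 7 were lower and 2 higher upstream than at the core. Over all upstream pairs the shares were 36.5% and 14.8%. Jun, a subunit of AP-1, had 1107, 1334, 1231 and 1473 upstream and 2809, 3035, 3258 and 2316 at the core (log2 ratio -1.15, SE 0.19, adjusted p = 6.1e-05). Klf10 was among the 2 with more upstream, with 743, 746, 662 and 603 against 364, 317, 499 and 562 (0.68, SE 0.28, adjusted p = 0.0495). The median log2 difference between genotypes over the 15 peaks was 0.03.

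Of the 36 microglia signature genes 7 had an upstream peak (9 peaks), while 34 had a near-TSS peak. In the 4 pairs the upstream peak was lower than the core in each, including Mertk, against 36.5% of all upstream pairs. P2ry13, a purinergic receptor, had 1463, 1056, 1103 and 1157 upstream and 1912, 1803, 2345 and 2135 at the core (log2 ratio -0.79, SE 0.20, adjusted p = 0.00231), and Gpr34, a lysophosphatidylserine receptor, 122, 247, 328 and 279 against 337, 538, 416 and 438 (-0.87, SE 0.33). Tgfbr1, the receptor for the cytokine TGF-beta that maintains microglia, had 1117, 928, 644 and 1201 in its strongest upstream peak, and Fcrls, an Fc receptor-like protein, 579, 548, 344 and 368 (log2 difference -0.66, SE 0.30, adjusted p = 0.433).

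Among cytokines, chemokines and their receptors 2 of 36 genes had an upstream peak, both interferon receptor chains. Ifngr2 had 1079, 925, 912 and 847 upstream and 624, 796, 140.1 and 377 at the core (log2 ratio of upstream to core 1.20, SE 0.35, adjusted p = 0.00708), where the WT and KO pools did not overlap. Ifnar1 had 463, 646, 785 and 739. Antigen presentation genes had 3 upstream peaks in 3 of 20 genes: Psmb8, an immunoproteasome subunit (221, 225, 295 and 236), H2-DMa, which loads peptides on class II molecules (160.0, 166, 164 and 97.9), and Tapbp, which does so on class I (32.8, 36.7, 111 and 68.8). Lysosomal genes had 8 in 7 of 44 genes, with 2 at Grn: besides the peak at -119 bp one at -995 bp had 813, 953, 1102 and 831. Scarb2, a lysosomal membrane receptor, had 659, 793, 741 and 626, and Mcoln1, a lysosomal calcium channel, 311, 407, 226 and 332.

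Chromatin and histone acetylation enzymes had 16 upstream peaks in 15 of 46 genes, 5 with KO pools above and 3 below. Brd2, which reads acetylated histones, had 1095, 681, 845 and 1368, over the start of a neighbour gene. Smarca2, the ATPase of a remodelling complex, had 924, 698, 363 and 514 (log2 difference -0.89, SE 0.32, adjusted p = 0.314), Setd2, the H3K36 methyltransferase, 708, 772, 684 and 474, and Kat6a, an acetyltransferase, 486, 639.7, 545 and 489. DNA repair genes had 2 upstream peaks in 50 genes, Aptx (429.8, 166, 453 and 231) and Fanca (189, 236, 249 and 268), with overlapping pools in Aptx and KO above WT in Fanca (log2 0.28, SE 0.46).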

How the data were processed

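Chromatin from sorted microglia was immunoprecipitated for Rpb2 or H3K27ac, size-selected to 225 to 400 bp and sequenced for 51 cycles. Per the labels and methods, the authors mapped reads to mm10 with Bowtie2, discarded reads without a unique position, called peaks in each pool with HOMER, retained those that both pools of a genotype reproduced, joined the 2 genotypes' lists and deposited raw read counts per joined peak (versions not given in the sources used here). The counts were used as deposited. Levels and tests used edgeR 4.0.16 (R 4.3.3; TMM factors, quasi-likelihood test, Benjamini-Hochberg adjustment over every row of a fit), with a mean of at least 4 reads required in a genotype, which removed 0 Rpb2 peaks. Genotypes were compared over the 10125 Rpb2 peaks within 1000 bp of a TSS. Upstream and downstream peaks were paired with the nearest core peak of the same gene name and fitted together, with the library as block, peak width as offset and, for the genotype test, a position by genotype term. Log2 ratios per library used a prior count of 2. H3K27ac was fitted over all its peaks and read where it overlapped an upstream peak by 1 bp or more. DESeq2 1.42.0 was an alternative. The scripts were tested on simulated counts.

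Start sites came from GENCODE and RefSeq annotation of GRCm38 and sequences from its genome; 1389 of the 2095 deposited TSS positions lay within 10 bp of an annotated start. Named peaks were the 10 highest levels and, among peaks whose WT and KO pools do not overlap, the 5 lowest p in each direction. Further named were the 5 highest and 5 lowest called ratios to the core and the 3 lowest p of the ratio test in each direction. Up to 4 highest peaks of each gene list were also named. All 9 called ratios were added after they were seen. An item that the rule named is not reported here. The peaks and lists were chosen with earlier results of these data known. Pools mix 3 mice, so p-values measure the spread between 2 pools a genotype.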

Additional observations from a re-analysis of the deposited data

How the results depend on the processing

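The absence of calls between genotypes in upstream peaks rests on the test and on every pool. The count of 0 became 1 (Nrip1) with DESeq2, with at least 10 reads in every library and with the sex label as a replicate block, and 28 (1.34%, against 1.23% of all near-TSS peaks) with edgeR's likelihood ratio test. Leaving out 1 pool gave 1 to 38 (38 without the WT pool labelled female, 1.81% against 2.34% of all; 30 without WT male, 1.43% against 1.04%; 1 without either KO pool). The lone WT pool is then taken to vary like the KO pools. Other scalings, no filter and all peaks in the fit gave 0. The median log2 difference of 0.066 was -0.060 with all Rpb2 peaks in the fit and 0.045 to 0.092 with 1 pool left out. In 2 settings chosen after seeing the data, it was -0.037 over peaks of both lists and 0.091 over peaks with no annotated start. The share of near-TSS reads in upstream peaks turned from 0.505 to -0.313 percentage points with all Rpb2 peaks as the denominator, and within the female and male labels the difference was 0.180 and 0.829.

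Calls between upstream and core density ranged from 237 to 270 with 1 pool left out, against 287. With pairs at least 400 bp apart the median log2 ratio was -0.61 in place of -0.46. The 9 called differences of that ratio between genotypes became 27 with the likelihood ratio test, 3 with at least 10 reads in every library, 16 with the replicate block, and 0 to 24 with 1 pool left out. Over upstream peaks of both lists, a setting chosen after seeing the data, 1 was called. The H3K27ac count of 0 became 3 with DESeq2 and 0 to 314 with 1 pool left out. The causes of these changes were not tested. Female minus male deviations of WT and KO correlated at 0.000122 over near-TSS peaks. The WT pool labelled female held chromosome Y reads, so this value cannot show whether sex has a shared part. Over all near-TSS peaks the block called 24 in place of 0 between genotypes, and over all H3K27ac peaks 12 in place of 13. The median upstream peak held 54 to 98 reads in 3 of the 4 libraries, and the common dispersion between pools was 0.0894.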

Other observations

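Upstream peaks with 0 reads were counted in each library. The WT pool labelled female had 23, WT male 13, KO female 4 and KO male 1. The 36 cases of the WT pools were all in the KO list, and the 5 of the KO pools in the WT list. A list holds peaks that both pools of its genotype reproduced in these same reads. The split by list follows from that and cannot check the lists. Reads per peak in KO female, the deepest library, otherwise had a median of 215.

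Upstream peaks of the KO list differed in sequence from those of both lists. Their median GC content was 58.5% against 63%, their CpG frequency relative to expectation 0.661 against 0.766, and GGGCGG was in 35.5% against 45.9%. The list was made from the reads, so this is a description, and the WT list stood between at 60%, 0.705 and 39.2%.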
